A study of Mus musculus with 6 samples.

Results

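The cells described here are myeloid cells of mouse mammary tumours that carried transcripts of Ly6i, Lpl or Inhba and few of the genes that mark C1q macrophages or Vcan F13a1 monocytes. They were chosen by a rule on raw UMI counts (unique molecular identifiers, which count captured RNA molecules): at least 3 counts of Ly6i, Lpl and Inhba together, at least 5 of Lyz2, fewer than 10 of C1qa, C1qb and C1qc together, fewer than 3 of Vcan and F13a1 together, at most 1 of Cd3e, Cd3d and Cd3g together, and 0 of Cd79a and of Ncr1. The rule took 1816 of 26843 filtered cells (6.77%), and these are called member cells below. It took 1309 cells from the CTX library, 420 from Combined, 45 from MRX, 26 from ctxd18t and 16 from combod18t, so that 95.2% came from CTX and Combined. Because the 3 leading genes were measured values that selected the cells, their levels in member cells are a description.

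The series holds 6 single-cell libraries, 1 per treatment label, of live cells from mouse mammary tumours, sorted for CD45, where CD45 is a surface protein of blood-derived cells. Its title names inhibition of MERTK, a receptor that macrophages use to clear dying cells, and cyclophosphamide, an alkylating chemotherapy, in triple negative breast cancer, a class of tumour without hormone receptors or HER2. The groups are labelled VC, MRX, CTX, Combined, ctxd18t and combod18t, and no label spells these out, so the libraries are called by their labels. The text "d18" was read as day 18, and the protocol, whose wording is shared by every sample, speaks of day 7 mice that received treatment 3 hours before harvest without saying which libraries those are. Strain, age, tumour model, number of animals and pooling are not given in the labels. VC was not analysed here (3656 barcodes), so no library serves as an untreated control.

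With 1 library per label there is no spread between replicates. No p-value can be given, and every interval below is a 95% interval of counting error alone, without variation between animals. The filtered libraries held 4011 to 8898 cells with a median of 6469.5 to 9170 UMIs per cell. CTX and combod18t shared 34 cell barcodes and Combined and ctxd18t shared 21, other pairs of libraries shared 0, and no shared barcode was a member cell in both libraries of a pair.

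Ly6i is a GPI-anchored surface protein of the Ly6 family, close in sequence to the monocyte marker Ly6c. Lpl is lipoprotein lipase, which releases fatty acids from circulating triglycerides. Inhba encodes the inhibin beta A chain, whose dimer is activin A, a ligand of the TGF-beta family. Monocytes that enter a tumour lose blood monocyte transcripts and gain those of macrophages, of which the complement C1q chains are a common late marker. Inflammatory signals such as interferon-gamma induce chemokines, among them Cxcl9, in these cells on the way. In sorted cells from a digested tumour, fewer cells of a type and a lower yield of that type cannot be told apart.

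The promoter windows of the rule gene Inhba and of Chil3 and Cxcl9, which the results below turn on, are shown because their levels differ between the libraries. They run from 250 bases before to 50 after the annotated start, 5′ to 3′ on the gene's strand, from RefSeq on GRCm38.p6, matched by symbol. Of 7 symbols 4 matched, and the window of the other match, Ccl17, a gene that few member cells carried, is not printed. Capitals mark a match to TTCNNNGAA, the GAS element of STAT factors, TGANTCA, the AP-1 site, or the interferon-stimulated response element (ISRE), searched on both strands.
Inhba (chr13:16011601-16011900, plus strand): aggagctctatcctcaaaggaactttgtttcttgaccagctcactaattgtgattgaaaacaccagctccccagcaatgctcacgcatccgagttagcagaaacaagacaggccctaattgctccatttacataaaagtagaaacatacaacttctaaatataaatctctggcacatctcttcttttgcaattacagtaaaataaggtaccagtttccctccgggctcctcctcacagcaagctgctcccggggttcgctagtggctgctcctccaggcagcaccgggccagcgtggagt
Chil3 (chr3:106167515-106167814, minus strand): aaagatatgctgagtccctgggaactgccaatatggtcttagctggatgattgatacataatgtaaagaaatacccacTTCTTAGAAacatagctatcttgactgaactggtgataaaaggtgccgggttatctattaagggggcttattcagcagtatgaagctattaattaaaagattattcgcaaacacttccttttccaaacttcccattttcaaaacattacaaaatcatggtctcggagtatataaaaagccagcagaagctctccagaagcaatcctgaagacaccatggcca
Cxcl9 (chr5:92328030-92328329, minus strand): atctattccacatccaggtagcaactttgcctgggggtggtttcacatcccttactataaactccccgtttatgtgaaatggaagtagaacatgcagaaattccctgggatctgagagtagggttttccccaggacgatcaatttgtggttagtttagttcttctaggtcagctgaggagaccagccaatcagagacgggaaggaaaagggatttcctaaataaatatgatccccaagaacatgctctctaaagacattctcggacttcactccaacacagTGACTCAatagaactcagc
Inhba held no match, Chil3 held 1 GAS match, Cxcl9 held 1 AP-1 match and the unprinted Ccl17 window held 1 GAS match. Among 32851 promoter windows of this length, 8.30% held the GAS letters, 7.81% the AP-1 letters and 3.44% the ISRE letters. A match is a description of the letters and not a binding site.

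Mmp19, a matrix metalloproteinase, and Chil3, a chitinase-like protein of monocytes, are also named with these cells, were not part of the rule and serve as a check of the label. In CTX, member cells held 306 CPM of Mmp19 (CPM, counts per 1000000 counts of the summed cells) (296.9 to 315), against 339 (327 to 351) in Vcan F13a1 cells and 221 (213 to 229) in C1q-high cells. In Combined, the Mmp19 levels were 382 CPM (365 to 400) in member cells, 467 (447 to 486) in Vcan F13a1 cells and 280.1 (261 to 301) in C1q-high cells. Vcan F13a1 cells are cells with 3 or more Vcan and F13a1 counts and fewer than 10 C1q counts, and C1q-high cells have 10 or more C1q counts and fewer than 3 Vcan and F13a1 counts, both within the same gate on Lyz2 and lymphoid genes. For Chil3 the CTX levels were 42.6 CPM in member cells, 72.9 in Vcan F13a1 cells and 34.8 in C1q-high cells, and the Combined levels were 106, 311 and 42.5 CPM. Neither gene was higher in member cells than in Vcan F13a1 cells of CTX or Combined, so these 2 genes do not set the member cells apart.

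The blood monocyte markers were high in member cells. Summed over a list of 6 that includes Ly6c2, Ccr2, Plac8, Hp and Ms4a4c, all 6 detected, the level was 6570.1 CPM in CTX and 7319.5 CPM in Combined member cells, against 8139 and 8648 CPM in Vcan F13a1 cells and 4317 and 4674 CPM in C1q-high cells. Plac8, a protein of monocytes and neutrophils, gave most of this sum, with 4008 CPM in CTX and 4534 CPM in Combined member cells. Of 8 markers of C1q macrophages, of which the rule capped 3, all 8 were detected, with a sum of 1339 CPM in CTX and 1009 CPM in Combined member cells against 11390 and 10531 CPM in C1q-high cells. The member cells of CTX and Combined lay between the other sets in the monocyte markers and low in the macrophage markers. Those of MRX were at 6362 CPM of the monocyte list, from 2401 counts in 45 cells, close to the 6167 CPM of its Vcan F13a1 cells. The member cells are called by their rule and not by a cell type.

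Neutrophil markers were low in the CTX and Combined member cells and higher in those of the other libraries. Of the 7 neutrophil markers (S100a8, S100a9, Csf3r, Retnlg, Cxcr2, Ly6g and Mmp8), the summed level was 210.0 CPM in CTX and 366 CPM in Combined, but 3049.8 CPM in MRX, 7346 CPM in combod18t and 22861 CPM in ctxd18t. Member cells with 10 or more counts of these markers numbered 11 of 1309 (CTX), 11 of 420 (Combined), 3 of 45 (MRX), 3 of 26 (ctxd18t) and 6 of 16 for combod18t. Ly6g and Mmp8 were at 0 in MRX. Without those cells the sum was 91.9 CPM for CTX, 105 for Combined and 87.6 for MRX, with 107 for ctxd18t and 178 for combod18t. The cells were removed by these same markers, so a lower sum was fixed by the removal. The T, NK, B, mast, epithelial and fibroblast lists each summed to at most 53.1 CPM in each library's member cells. The lists of conventional dendritic cells summed to 68.3 to 180.4 CPM (type 1) and 55.7 to 233 CPM (type 2), migratory dendritic cells to 21.0 to 114 CPM and endothelial cells to 39.7 to 92.9 CPM. The plasmacytoid list reached 331 to 835 CPM, most of it from Bst2 (701 CPM in CTX and 699 in Combined). Its defining marker Siglech was at 22.8 CPM in CTX and 29.5 in Combined member cells, against 20.6 and 40.4 in Vcan F13a1 and 21.8 and 29.4 in C1q-high cells, and at 0 in those of MRX, ctxd18t and combod18t.

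The share of member cells differed most between the MRX and day 18 libraries on one side and CTX and Combined on the other. Member cells made up 14.7% of filtered cells in CTX (14.0 to 15.5) and 9.38% in Combined (8.54 to 10.3). MRX held 0.827% (0.604 to 1.11), ctxd18t held 0.648% (0.424 to 0.948) and combod18t held 0.398% (0.228 to 0.646). The difference was 13.9 percentage points for CTX against MRX (13.1 to 14.7) and 8.56 points for Combined against MRX (7.69 to 9.47). Applying the rule after thinning each cell to 3000 UMIs, which left out 558 MRX, 470 CTX and 209 Combined cells, gave 0.492% in MRX, 10.5% in CTX and 8.20% in Combined.

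Combined held fewer member cells than CTX among all cells, and slightly more among myeloid cells. The difference of Combined from CTX was -5.33 points (-6.44 to -4.18) of filtered cells, and -2.33 points (-3.37 to -1.26) after thinning to 3000 UMIs. Of the cells that passed the Lyz2 and lymphoid conditions alone, called the myeloid gate, member cells were 31.5% in CTX (30.04 to 32.9) and 34.6% in Combined (31.9 to 37.3), a difference of 3.12 points (0.132 to 6.17). The myeloid gate itself held 46.8% of CTX and 27.1% of Combined cells. C1q-high cells were 12.5% of CTX and 4.96% of Combined cells, and Vcan F13a1 cells were 7.95% and 7.75%, a difference of -0.19 points (-1.14 to 0.79). The lower share of member cells in Combined therefore holds for all sorted cells and not within the gate.

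At day 18 the sign and the interval of the difference depended on the setting. The difference of combod18t from ctxd18t was -0.250 points (-0.587 to 0.0718) of filtered cells and 1.55 points (-1.27 to 5.11) of the myeloid gate. Without the cells that held 10 or more neutrophil marker counts, an alternative chosen after seeing the data, the first difference was -0.377 points (-0.722 to -0.0631). With 5 or more Ly6i, Lpl and Inhba counts it was -0.349 points (-0.639 to -0.0906).

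**Figure D1:**
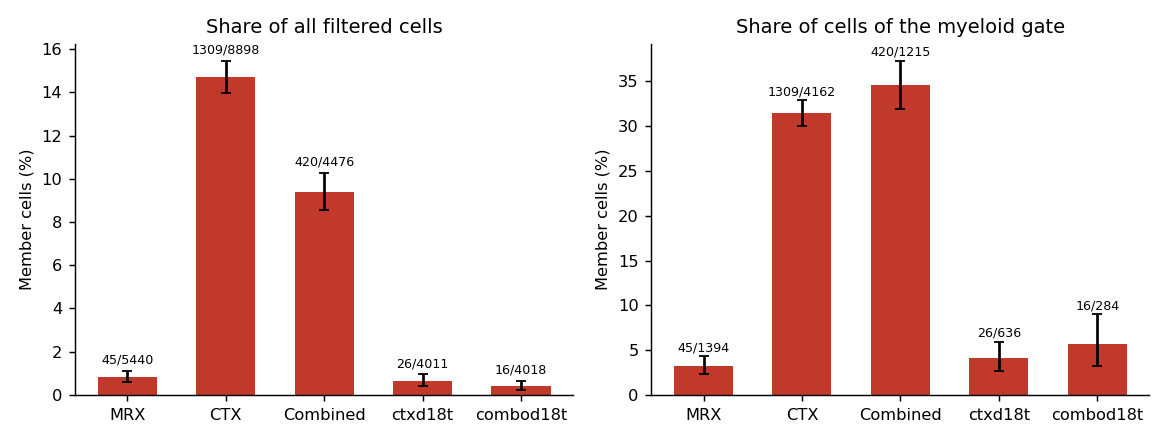
Share of member cells in each library, of all filtered cells (left) and of the myeloid gate (right), with bars at the share, exact 95% binomial intervals as error bars and the cell counts above them. CTX stands above Combined on the left (14.7% and 9.38%) and below it on the right (31.5% and 34.6%), and MRX and both day 18 libraries lie at or under 5.63% in both.

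Counts of Ly6i, Lpl and Inhba were not confined to cells low in C1q and Vcan F13a1. In CTX, 1309 of 2048 C1q-low, Vcan F13a1-low cells of the myeloid gate held 3 or more counts of these genes (63.9%, 61.8 to 66.0). The same held for 439 of 707 Vcan F13a1 cells (62.1%, 58.4 to 65.7) and 530 of 1111 C1q-high cells (47.7%, 44.7 to 50.7). In Combined these shares were 71.6%, 66.0% and 59.5%, from 587, 347 and 222 cells. In MRX they were 9.76%, 6.70% and 6.13%, from 461, 448 and 375 cells. In ctxd18t they were 16.8%, 20.8% and 14.4%, and in combod18t 17.2%, 21.4% and 5.21%, the last from 5 of 96 cells. In each compartment the CTX and Combined shares lay above those of the other libraries, with no overlap of their intervals.

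**Figure D2:**
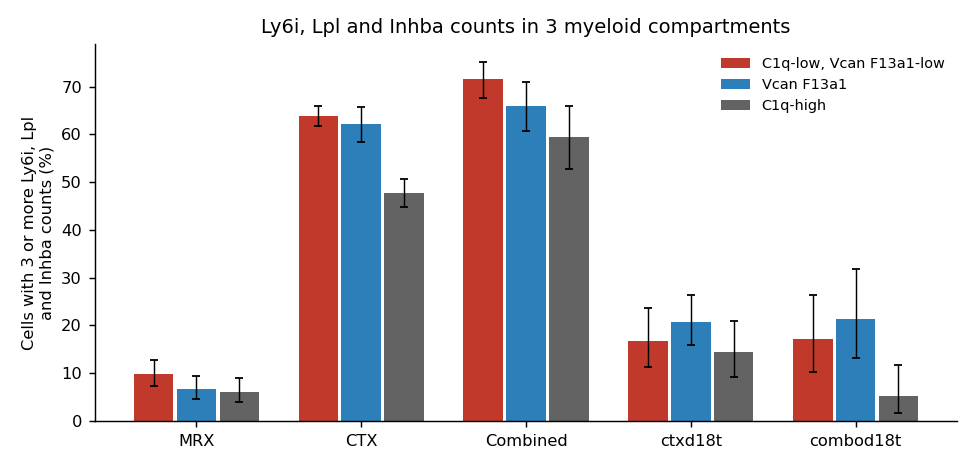
Share of cells with 3 or more counts of Ly6i, Lpl and Inhba in each myeloid compartment (C1q-low and Vcan F13a1-low, Vcan F13a1, C1q-high) of each library, with bars at the share and exact 95% binomial intervals. Bars of CTX and Combined reach 47.7% to 71.6% in every compartment, and those of MRX, ctxd18t and combod18t reach at most 21.4%.

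After each cell was thinned to 3000 UMIs before all gates, the shares in the same order of compartments were 31.6%, 21.4% and 12.8% in CTX, 36.4%, 22.2% and 21.5% in Combined, and 3.69%, 1.65% and 0.946% in MRX. They were 4.63%, 5.10% and 2.70% in ctxd18t, and 4.38%, 3.28% and 0% in combod18t, where 0 of 84 C1q-high cells allows up to 4.30%. CTX and Combined stayed highest in each compartment at equal depth.

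In the Vcan F13a1 and C1q-high cells, which were not chosen on them, the 3 genes were highest in CTX and Combined. Ly6i in Vcan F13a1 cells was at 300.3 CPM (289 to 312) for CTX and 360.3 (343 to 378) for Combined, against 28.2 (23.4 to 33.7) for MRX, 41.9 (35.5 to 49.1) for ctxd18t and 43.4 (32.8 to 56.3) for combod18t. Its log2 ratio of CPM + 1 was 3.37 for CTX against MRX (3.15 to 3.69) and 0.05 for combod18t against ctxd18t (-0.42 to 0.50). The pseudocount of 1 CPM understates the change of low genes. In C1q-high cells Ly6i stood at 237 CPM in CTX, 378 in Combined and 40.8 in MRX. In B cells, which should lack the gene, 2.26% of CTX cells thinned to 3000 UMIs held a Ly6i UMI, against 44.1% of thinned CTX Vcan F13a1 cells, with median depths of 4213 and 10857 UMIs before thinning.

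Lpl, the lipase, stood at 120 CPM in CTX Vcan F13a1 cells (112 to 127) and 147 in those of Combined (136 to 159), against 20.8 for MRX, 5.79 for ctxd18t and 8.52 for combod18t. The log2 ratio of Combined over CTX was 0.30 in Vcan F13a1 cells (0.16 to 0.44), 0.19 in C1q-high cells (-0.01 to 0.39) and -0.02 in member cells (-0.12 to 0.08). The interval excluded 0 in Vcan F13a1 cells and held 0 in the other sets. In B cells 0.226% of thinned CTX cells held an Lpl UMI.

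Inhba, the activin A chain, stood at 114 CPM in CTX Vcan F13a1 cells and 147 in those of Combined, with 41.1 for MRX, 96.2 for ctxd18t and 45.7 for combod18t. In C1q-high cells it was 53.3 CPM for CTX and 98.0 for Combined, with 4.29 for MRX, 29.0 for ctxd18t and 5.48 for combod18t, which had 6 counts. Without cells that held 10 or more neutrophil marker counts, an alternative chosen after seeing the data, the log2 ratio of Inhba in Vcan F13a1 cells, combod18t against ctxd18t, went from -1.06 to -0.30. The 5 cells with the most Inhba held 46.1% of its counts in the ctxd18t Vcan F13a1 cells and 76.3% in those of combod18t.

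**Figure D3:**
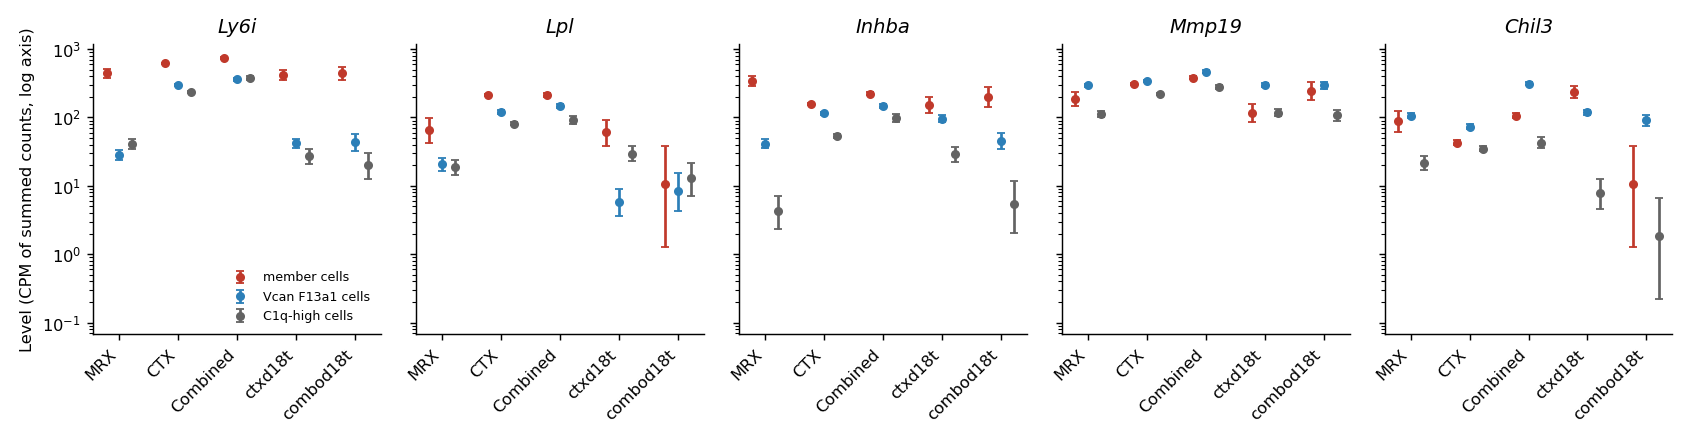
Level of the 3 rule genes and of Mmp19 and Chil3 (CPM of summed counts, log axis) in member cells, Vcan F13a1 cells and C1q-high cells of each library, with points at the level and exact 95% Poisson intervals. Ly6i and Lpl in the sets not chosen on them are highest in CTX and Combined, and Mmp19 in Vcan F13a1 cells stays between 293 and 467 CPM in all 5 libraries.

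At the edge of the rule, CTX held 131 cells with exactly 3 counts of the 3 genes and 165 otherwise alike with 2, with 279 and 248 CPM of Mmp19 and 66.2 and 52.7 CPM of Chil3. The median member cell held 8 counts of the 3 genes in CTX and 11 in Combined. Cells with enough Ly6i, Lpl and Inhba counts that were kept out by 10 or more C1q counts numbered 530 in CTX and 132 in Combined, and 439 and 229 were kept out by Vcan and F13a1. The lower limit fell between groups of like size in CTX, so the rule takes a range of levels within the myeloid cells.

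Ly6i led the entry of most cells. The highest of the 3 counts was that of Ly6i in 73.9% of CTX member cells (71.5 to 76.3) and 71.7% of Combined member cells (67.1 to 75.9). Lpl led in 14.3% of each, Inhba in 9.93% and 11.0%, and 1.83% and 3.10% were tied. All 3 genes had a UMI in 183 of 1309 CTX cells and 63 of 420 Combined cells, and Ly6i was the only one in 37.3% and 40.0%. In the libraries with few member cells, Ly6i led in 25 of 45 cells of MRX, 17 of 26 of ctxd18t and 9 of 16 of combod18t, and Inhba led in 13, 6 and 6.

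In cells led by Lpl or Inhba, set against those led by Ly6i, 4 of the 10 CC chemokines that passed the filter in CTX were called higher and 0 lower, with a median log2 ratio of 0.86. In Combined it was 3 of 8, with 0 lower and a median of 0.87. Of 6 alternative activation and scavenging genes that passed in each library, 3 were called higher and 0 lower, with medians of 0.75 (CTX) and 0.85 (Combined). The medians of all genes tested were 0.01 and -0.0037. Of 3461 genes tested in CTX, 16 were at least 2-fold higher with an interval that excluded 0 (0.462%) and 2 were lower (0.0578%). In Combined it was 13 (0.360%) and 7 (0.194%) of 3616. The overlap was 6 genes, which is 37.5% of the CTX list and 46.2% of the Combined list, and all 16 genes of CTX were above 0 in Combined. Of the lower genes, 0 were called in both libraries. The rule for naming these genes was chosen after their values were seen, and since the rule used genes of the same cells these ratios are a description.

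Mgl2, a C-type lectin of macrophages and type 2 dendritic cells, stood at 294 CPM in Lpl-led, 125 in Inhba-led and 41.8 in Ly6i-led cells of CTX. In Combined it was 200.4, 14.5 and 22.9 CPM, so only the Lpl-led cells were high in both libraries. Ear2, an eosinophil-associated ribonuclease of monocytes and macrophages, stood at 303, 95.9 and 43.1 CPM in CTX and 134, 22.7 and 18.1 CPM in Combined. Mrc1, the mannose receptor, was at 199, 84.2 and 71.7 CPM in CTX and 119, 39.3 and 35.0 CPM in Combined. All 3 genes were highest in Lpl-led cells of both libraries, and few cells carried the Combined values. Of 60 Lpl-led Combined cells, 9 held a Mgl2, 11 an Ear2 and 21 a Mrc1 UMI, and the 5 highest cells held 82.4%, 88.9% and 63.6% of the counts. Of 187 Lpl-led CTX cells it was 43, 52 and 88, with 45.1%, 30.6% and 17.1% of the counts in the 5 highest. In the 130 Inhba-led CTX cells the 5 highest held 95.9%, 79.4% and 52.2%.

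Among chemokines, the eotaxin Ccl24 was at 132 CPM in Lpl-led, 103 in Inhba-led and 47.0 in Ly6i-led CTX cells, and at 122, 112 and 31.5 CPM in Combined. The 5 highest cells held 66.0% of the CTX counts of Ccl24 in Lpl-led and 68.6% in Inhba-led cells. In Combined, 60 of the 90 Ccl24 counts of Lpl-led cells came from 1 cell, and 5 cells held 90.7% of the 54 counts of Inhba-led cells. Ccl6, a chemokine of myeloid cells, was at 1040.0, 518 and 444 CPM in CTX and 956, 329 and 370.0 CPM in Combined, so the Inhba-led Combined cells were not the higher ones for Ccl6. Ccl7, a ligand of CCR2, was at 80.5, 88.6 and 28.0 CPM in CTX and at 19.0, 143 and 13.5 CPM in Combined. For Ccl7 in Inhba-led cells, 68 of the 121 counts in CTX and 64 of the 69 in Combined came from 1 cell each, and 5 cells held 77.5% of the Ccl7 counts of Lpl-led CTX cells. Ccl17, a CCR4 ligand typical of dendritic cells, had 525 counts in 28 CTX member cells, of which the 5 highest held 77.0%, and 78 counts in 6 Combined cells.

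Type 2 dendritic markers were higher in the Lpl-led cells. Of the type 2 list Cd209a, Flt3, Zbtb46, Clec10a and Mgl2, all 5 were detected in Lpl-led cells of CTX and Combined, with a sum of 415 and 322 CPM against 81.6 and 57.9 CPM in Ly6i-led cells. Without Mgl2 the sums were 121 and 122 CPM against 39.8 and 35.0. Cells with 3 or more counts of the list without Mgl2 were 22 of 187 Lpl-led CTX cells (11.8%), 7 of 60 in Combined (11.7%), 42 of 968 Ly6i-led CTX cells (4.34%) and 14 of 301 in Combined (4.65%). For the type 1 list, cells with 3 or more counts were 18.7% of Lpl-led and 6.30% of Ly6i-led CTX cells, and 16.7% and 4.98% in Combined, not matched for depth. Its sums differed less, at 108 against 74.7 CPM in CTX and 100 against 67.1 CPM in Combined. Of its 1124 counts in CTX member cells, Wdfy4 gave 568 and Batf3 372. Xcr1 had 4 counts in CTX and 4 in Combined member cells, so the type 1 list is weak evidence of such cells. The migratory list summed to 57.9 CPM in Inhba-led and 14.0 CPM in Ly6i-led Combined cells, with 3 or more counts in 5 of 46 (10.9%) and 5 of 301 (1.66%). In CTX it summed to 65.2 and 31.6 CPM, with 3 or more counts in 6 of 130 (4.62%) and 29 of 968 (3.00%). The part of cells with dendritic markers in the levels by entry gene was not tested.

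Some genes had higher levels in Ly6i-led cells, though Neurl3, Irf7 and Ly6a stayed under 2-fold in both libraries, with log2 ratios of Lpl- or Inhba-led over Ly6i-led cells from -0.95 to -0.44. Neurl3, a ubiquitin ligase induced by inflammation, stood at 165 CPM in Ly6i-led, 89.6 in Lpl-led and 92.3 in Inhba-led CTX cells, and 136, 65.0 and 78.5 CPM in Combined. Irf7, an interferon regulatory factor, was at 382, 203 and 326 CPM in CTX and 462, 219 and 368 CPM in Combined. Ly6a, which encodes the surface protein Sca-1 and lies in the same gene cluster as Ly6i, was at 1306, 991 and 841 CPM in CTX and 1201, 1052.0 and 624 CPM in Combined. Mmp19 went the other way, with 264, 368 and 533 CPM in CTX and 345, 389 and 645 CPM in Combined, highest in Inhba-led cells. The 5 highest Inhba-led cells held 18.8% of the Mmp19 counts of that group in CTX and 50.6% in Combined, where they were 5 of 46 cells. A Mmp19 UMI was found in 74.6% of Inhba-led and 59.1% of Ly6i-led CTX cells, but in 63.0% and 67.8% of those of Combined.

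Cxcl9, the chemokine that draws CXCR3-positive T cells, was at a like level for each entry gene in CTX and not in Combined. In CTX it stood at 1467 CPM in Ly6i-led, 1385 in Lpl-led and 1502 in Inhba-led cells, and in Combined at 961, 1457 and 1829 CPM. The 5 highest of the 46 Inhba-led Combined cells held 48.1% of the 885 Cxcl9 counts there, and a Cxcl9 UMI was found in 73.9% of them, against 78.1% of Ly6i-led Combined cells. The log2 ratio of Lpl- or Inhba-led over Ly6i-led cells was -0.04 in CTX (-0.08 to 0.01) and 0.74 in Combined (0.66 to 0.82). Ly6i-led cells were thus the group with a lower Cxcl9 level in Combined than in CTX.

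**Figure D4:**
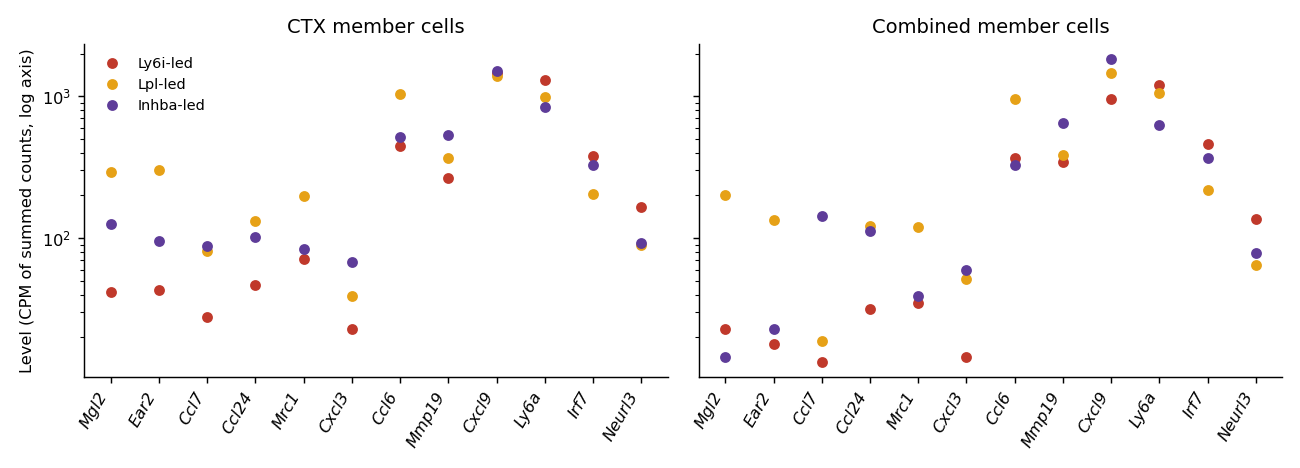
Level of 12 genes (CPM of summed counts, log axis) in member cells of CTX (left) and Combined (right) led by Ly6i, Lpl or Inhba, 1 point for each group of cells and no error bars drawn. Mgl2, Ear2 and Mrc1 are highest in Lpl-led cells of both libraries (294, 303 and 199 CPM in CTX), Mmp19 in Inhba-led cells, and Irf7 and Neurl3 in Ly6i-led cells.

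Set beside the other myeloid cells of their library, member cells differed in few genes. Against Vcan F13a1 cells, 6 of 3446 genes were at least 2-fold higher (0.174%) and 11 lower (0.319%) in CTX, and 6 of 3582 (0.168%) and 17 (0.475%) in Combined. Against C1q-high cells it was 14 (0.404%) and 39 (1.12%) of 3468 genes in CTX and 32 (0.873%) and 54 (1.47%) of 3667 in Combined. The counts are a description, because the sets were cut by the levels of genes of the same cells.

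The 6 genes called higher than in Vcan F13a1 cells were Itgax, Gm15056, Anpep, Cxcl9, Mgl2 and Dnase1l3 in CTX, and Itgax, Gm15056, Creb5, Pdcd1lg2, G0s2 and S100a9 in Combined. The last 2 moved with neutrophil markers, and 5 of the 420 Combined member cells held 61.0% of the G0s2 and 79.3% of the S100a9 counts. An alternative chosen after seeing the data left out the cells of both sets that held 10 or more neutrophil marker counts. G0s2 was then at 3.76 CPM in member cells against 4.23 in Vcan F13a1 cells, from 18 and 19 counts. S100a9 was at 2.93 against 3.12 CPM, but it is one of those markers, so its fall was fixed by the removal. Itgax, the integrin CD11c, stood at 85.1 against 36.0 CPM in CTX and 50.9 against 19.0 CPM in Combined. Cxcl9 stood at 1466 against 715 CPM in CTX and 1139 against 804 CPM in Combined, Mgl2 at 88.3 against 33.6 CPM and 48.4 against 34.0 CPM, and Dnase1l3 at 50.3 against 11.2 CPM and 23.7 against 12.8 CPM. C1q-high cells held more Mgl2 (89.8 CPM in CTX and 59.9 in Combined) and Dnase1l3 (96.1 and 138 CPM) than member cells. Their Cxcl9 level was lower (1023 and 1119 CPM). Ly6a, Cxcl16 and Cfb were higher by less than 2-fold in both libraries, and Pdcd1lg2 in CTX. Ly6a stood at 1206 against 655 CPM in CTX and 1110.4 against 614 CPM in Combined. Cxcl16, a membrane-bound chemokine and lipoprotein receptor, was at 341 against 190.4 CPM and 219 against 131 CPM. C1q-high cells were above member cells in Cxcl16 (531 CPM in CTX and 502 in Combined) and below them in Ly6a (1013 and 1008 CPM). Cfb, complement factor B, was at 494 against 304 CPM and 712 against 408 CPM, and Pdcd1lg2, the PD-1 ligand PD-L2, at 93.4 against 59.1 CPM and 74.6 against 34.6 CPM. Among the genes that were lower, Ccl2 stood at 93.3 against 285 CPM in CTX and 113 against 427 CPM in Combined, Ccl7 at 41.8 against 173 CPM and 27.4 against 160 CPM, and the matrix protein Fn1 at 70.2 against 161 CPM and 47.4 against 138 CPM.

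Against C1q-high cells, member cells had more Hp (haptoglobin), with 189 against 63.9 CPM in CTX and 284 against 92.5 CPM in Combined. Clec4e, a C-type lectin that senses damaged cells and mycobacteria, stood at 267 against 119 CPM and 384 against 151 CPM. Thbs1, the matricellular protein thrombospondin 1, was at 604 against 284 CPM and 791 against 340.0 CPM. Macrophage genes outside the rule were lower: Ms4a7 at 34.8 against 420.3 CPM in CTX and 18.1 against 189.8 CPM in Combined, Apoe at 1044 against 3687 CPM and 830.3 against 3468 CPM, and Ccl8 at 82.9 against 833 CPM and 37.7 against 541 CPM.

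The comparison of Combined with CTX bears on the question in the title, what the MERTK inhibitor adds to cyclophosphamide, if the labels mean what they appear to mean. It could be made gene by gene in member cells only here, since MRX, ctxd18t and combod18t held fewer than 50 member cells. The sums rested on 14183961 UMIs in CTX and 4854816 in Combined, and the median member cell had 9793 and 11002.5 UMIs. Of 3556 genes with at least 50 counts over the pair and at least 50 CPM in 1 library, 6 were at least 2-fold higher in Combined with an interval that excluded 0 (0.169%) and 10 were lower (0.281%). The median log2 ratio over all genes tested was 0.06, and 90% of genes lay between -0.39 and 0.38.

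**Figure D5:**
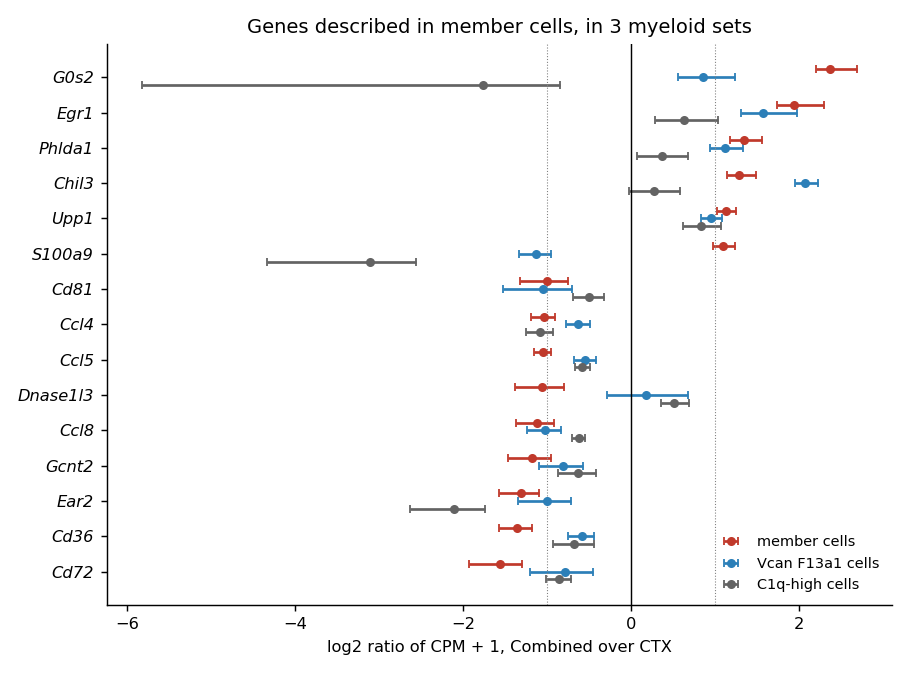
Log2 ratio of CPM + 1, Combined over CTX (x axis), of the genes past 2-fold in member cells that are described here, with points for member cells, Vcan F13a1 cells and C1q-high cells, 95% counting intervals and dotted lines at the 2-fold limits. Cd36 lies at -1.36 in member cells, and S100a9 lies above 0 in member cells and below 0 in the other sets.

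CC chemokines were mostly lower in Combined member cells. Of 12 in the list, 8 passed the filter, 3 were called lower and 0 higher, and the median log2 ratio was -0.43 against 0.06 for all genes tested. Ccl5, a chemokine that attracts T cells and monocytes, stood at 409 CPM (398 to 419) for CTX and 198 (185 to 210.4) for Combined, a log2 ratio of -1.05 (-1.15 to -0.95). Ccl4, a macrophage inflammatory protein, stood at 211 and 102 CPM (-1.04, -1.18 to -0.91), with 34.9% and 42.9% of its counts in the 5 highest cells. Ccl8, a ligand of several CC receptors that marks some tissue macrophages, stood at 82.9 and 37.7 CPM (-1.12, -1.37 to -0.91). All 3 were below 0 in Vcan F13a1 cells (-0.54, -0.63 and -1.02) and in C1q-high cells (-0.58, -1.08 and -0.62) too, without a test of the difference between sets. Not all of these calls held. After thinning to 3000 UMIs Ccl4 was at -0.37 and Ccl8 at -0.76, and by the mean of each cell's CPM Ccl5 was at -0.94.

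Of 13 CXC chemokines 5 passed the filter, 0 were called, and the median was -0.36. Cxcl9 stood at 1466 CPM (1446 to 1486) for CTX and 1139 (1109 to 1170) for Combined, a log2 ratio of -0.36 (-0.41 to -0.32). Its ratio was above 0 in the other sets, at 0.17 in Vcan F13a1 cells (0.11 to 0.23; 715 and 804 CPM) and 0.13 in C1q-high cells (0.07 to 0.19; 1023 and 1119 CPM). A Cxcl9 UMI was found in 80.8% of CTX and 78.8% of Combined member cells. Cxcl16 stood at 341 and 219 CPM (-0.64), Cxcl11, an interferon-induced CXCR3 ligand, at 412 and 298 CPM (-0.47), and the neutrophil attractant Cxcl2 at 1153 and 1181 CPM (0.03, -0.01 to 0.08).

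Scavenging and lipid genes included 2 of the 10 lower genes. Cd36, the fatty acid and oxidised lipoprotein receptor, stood at 132 CPM in CTX and 51.1 CPM in Combined (-1.36, -1.57 to -1.18), and was found in 31.0% and 19.0% of cells. In Ly6i-led cells alone it was at -0.999, short of 2-fold. It was the only one called among 15 of 27 lipid genes that passed, whose median was -0.13. Apoc2, an activator of lipoprotein lipase, was at -0.80 (-1.40 after thinning) and Lrp1, a lipoprotein receptor, at -0.58, whereas Acsl1, which activates fatty acids, was at 0.68. Of 15 genes of alternative activation and scavenging 6 passed, with a median of -0.56, and Ear2 alone was called lower, at 89.5 and 35.6 CPM (-1.30, -1.57 to -1.10). The 5 highest cells held 18.5% of the Ear2 counts in CTX and 64.7% in Combined. Mrc1 was at -0.97 and Mgl2 at -0.85, and Clec4d, a C-type lectin of inflammatory cells, at 0.75.

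Further lower genes were Cd72, a co-receptor best known from B cells, at 58.2 and 19.2 CPM (-1.56), and Gcnt2, a glycosyltransferase, at 68.7 and 29.9 CPM (-1.17). Dnase1l3, a secreted nuclease, stood at 50.3 and 23.7 CPM (-1.05) and the tetraspanin Cd81 at 52.2 and 25.5 CPM (interval of the log2 ratio -1.32 to -0.75). Dnase1l3 was at 0.52 in C1q-high cells (0.36 to 0.69) and at 0.18 in Vcan F13a1 cells, with an interval that held 0 (-0.29 to 0.68). The other 3 genes lay below 0 in both sets. After thinning Dnase1l3 was at -0.36, short of 2-fold. Gcnt2 was at -0.97 with 5 or more counts of the rule genes, and Cd81 at -0.81 with a pseudocount of 10 CPM.

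Among the 6 higher genes, Egr1, an immediate early transcription factor, stood at 13.04 CPM in CTX and 52.9 CPM in Combined (1.94, 1.74 to 2.30), with a UMI in 8.17% and 21.9% of cells. Phlda1, a gene induced by growth factor and stress signals, stood at 34.8 and 90.2 CPM (1.35, 1.19 to 1.56), in 24.1% and 45.7% of cells. Upp1, uridine phosphorylase, stood at 98.1 and 216 CPM (1.13, 1.02 to 1.26), in 35.4% and 55.2% of cells. The shares of cells were not matched for depth, with medians of 9793 UMIs in CTX and 11002.5 in Combined. These 3 genes were above 0 in Vcan F13a1 cells (1.57, 1.12 and 0.96) and in C1q-high cells (0.64, 0.37 and 0.84).

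Chil3 was at 42.6 and 106 CPM (1.29, 1.14 to 1.49), in 20.5% and 36.7% of member cells, and was the only one of 5 chitinase-like genes to pass the filter. In Vcan F13a1 cells its ratio was 2.08 (1.96 to 2.23) and in C1q-high cells 0.28 (-0.02 to 0.58). The GAS letters in its promoter window stand above.

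G0s2 and S100a9 moved with neutrophil markers. G0s2, an inhibitor of triglyceride breakdown that neutrophils also express, stood at 15.02 and 81.8 CPM (2.37, 2.20 to 2.69), from 27 of 1309 and 18 of 420 cells. S100a9, a neutrophil calcium-binding protein and itself on the neutrophil list, stood at 75.9 and 164 CPM (1.10, 0.98 to 1.25), with 80.8% and 79.3% of its counts in 5 cells. Without the member cells that held 10 or more neutrophil marker counts, an alternative chosen after seeing the data, the ratios were 0.82 for G0s2 and -0.66 for S100a9, and 3 genes were called higher and 9 lower. G0s2 then rested on 24 counts in CTX and 18 in Combined (1.71 and 3.76 CPM), where the pseudocount of 1 CPM lowers the ratio. With the mean of each cell's CPM in place of summed counts, 10 genes were called higher and 6 lower. Thinning to 3000 UMIs gave 15 and 10.

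Ligands and receptors near the rule genes differed little. Of 9 Ly6 genes 4 passed, 0 were called and the median was 0.14, with Ly6c2, the monocyte marker, at 0.26 and Ly6a at -0.12. Of 23 activin and TGF-beta genes 8 passed, 0 were called and the median was 0.03, with Smad7, an inhibitor of TGF-beta signalling, at 0.40 (-0.09 after thinning). Mmp19 was among 9 of 22 matrix proteases and inhibitors that passed, at 0.32 (0.24 to 0.40), with a median of 0.10 and 0 called. Of 16 matrix genes 9 passed, 0 were called and the median was -0.09, with the growth factor Areg at 0.87 and Fn1 at -0.56. Over the alternatives Areg ranged from 0.42 (Ly6i-led cells) to 1.25 (after thinning), past 2-fold, and Fn1 from -0.98 to -0.16. Of 23 chemokine and growth factor receptors 20 passed, 0 were called and the median was 0.12, with the monocyte receptor Ccr2 at -0.32. Of 6 TAM receptors and ligands only Axl passed, at -0.32. Mertk itself stood at 12.8 CPM in CTX and 14.6 CPM in Combined member cells, below the filter.

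The medians of the interferon lists were near that of all genes. Of 21 inflammatory cytokines 3 passed, with 0 called: Osm, oncostatin M, at 0.79, Il1rn at 0.17 and Il1b at 0.16 (3778 and 4222 CPM). Of 24 interferon-gamma response genes 18 passed, 0 were called and the median was 0.13, with an interval above 0 for 9 and below 0 for 3, and with Socs1, a feedback inhibitor of cytokine signalling, at 83.8 and 142 CPM (0.75, 0.62 to 0.89). Of 20 type I interferon genes 14 passed, 0 were called and the median was -0.09, with Ifit2 at -0.62 (-0.05 after thinning). All 10 class II antigen presentation genes passed, 0 were called, 7 were below 0 and the median was -0.22, with H2-Eb1 at 7410 and 5736 CPM (-0.37).

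In the lists of hypoxia, metal stress, p53 and cell cycle genes 0 genes were called. Of 24 hypoxia and glycolysis genes 20 passed, with a median of 0.08, Hilpda, a lipid droplet protein, at 0.73 and the glucose transporter Slc2a1 at 0.54. Of 15 metal and oxidative stress genes 10 passed, with a median of 0.19, Mt1 (metallothionein) at -0.95 and Sod2 (mitochondrial superoxide dismutase) at 0.55. Of 14 p53 response genes 4 passed, all above 0, with a median of 0.40: Ccng1 at 0.57, Mdm2 at 0.52, Bax at 0.29 and Cdkn1a at 0.27. Of 18 cell cycle genes only Pcna passed, at 0.11.

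In Vcan F13a1 cells Ly6a and Cxcl9, which no rule condition used, were highest in CTX and Combined. Ly6a in Vcan F13a1 cells stood at 655 CPM for CTX and 614 for Combined, against 48.5 for MRX, 67.2 for ctxd18t and 22.5 for combod18t. Cxcl9 in Vcan F13a1 cells stood at 715 CPM for CTX and 804 for Combined, against 252 for MRX, 166 for ctxd18t and 51.1 for combod18t. In the few member cells of the other libraries Ly6a was at 204 CPM (MRX), 324 (ctxd18t) and 426 (combod18t), and Cxcl9 at 906, 756 and 925 CPM.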

How the data were processed

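RNA of single sorted cells was counted by 10x 3′ chemistry in 6 libraries, of which 5 were analysed. The deposited values are whole UMI counts per gene and cell barcode (33696 genes), made with Cell Ranger 9.0.1 per the file headers. The submitters' processing notes also name the GRCm39 build and Seurat 5.2.0 without a role. The members and gene lists were chosen with earlier results of these data known.

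Cells with at least 200 genes and at most 15% mitochondrial counts were kept, and the rule was applied to their raw counts. Counts were summed per library and set and scaled to CPM (counts per 1000000). A gene was called when its ratio of CPM + 1 was at least 2-fold and its exact conditional binomial 95% interval excluded 0, among genes with at least 50 counts over the pair and 50 CPM on a side, without the 14 rule genes. Pairs with under 50 member cells on a side were not compared gene by gene. Shares have Clopper-Pearson intervals, their differences Newcombe intervals, and levels Poisson intervals, all for counting error only. B cells, used for background, had 3 or more Cd79a counts. Named genes were the rule genes, Mmp19 and Chil3, up to 10 called genes per direction, up to 4 per list by absolute ratio, and the 12 most different per myeloid set. Some results under this rule are not reported here. Genes outside this rule were added after their values were seen. Scrublet in scanpy marked at most 0.134% of a library's cells and so did not work, and doublets were not removed. Alternatives covered cell filters, depth, rule limits, scaling and pseudocount. The ratio and interval steps were run on simulated Poisson counts, which have the spread that the intervals assume. The simulation held no added variation between cells or animals, so it does not bear on that variation. Tools were Python 3.11.15, numpy 2.4.6, scipy 1.17.1, pandas 2.3.3, scanpy 1.11.5 and matplotlib 3.10.9.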

Additional observations from a re-analysis of the deposited data

Results flagged for a closer look

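Chil3 and Inhba differed in opposite directions between the paired libraries, outside the member cells. Each is a log2 ratio of CPM + 1 from 1 library per label, and the difference between the pairs was not tested. Chil3 in Vcan F13a1 cells was at 2.08 for Combined against CTX and -0.38 for combod18t against ctxd18t, and the second was 0.10 without cells that held 10 or more neutrophil marker counts, an alternative chosen after seeing the data. Inhba in C1q-high cells was at 0.87 and -2.21, the second from 6 counts in combod18t and 63 in ctxd18t. Inhba in Vcan F13a1 cells was at 0.36 and -1.06, and the second was -0.30 without the cells that held neutrophil marker counts.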

How the results depend on the processing

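No paired analysis was possible because each label has 1 library, and for the same reason no library could be left out of a group. In percentage points, the difference in member share of Combined from CTX was -2.33 with each cell thinned to 3000 UMIs, -3.67 with 5 or more Ly6i, Lpl and Inhba counts, and 3.12, the opposite sign, with the myeloid gate as denominator. That of combod18t from ctxd18t was 1.55 with the myeloid gate as denominator, and with 5 or more counts of the rule genes it was -0.349 (-0.639 to -0.0906). That of CTX from MRX was 10.04 thinned, 11.3 with 5 or more counts and 28.2 of the myeloid gate, and that of Combined from MRX was 7.67 with 5 or more counts and 31.3 of the myeloid gate. The count of 16 genes between Combined and CTX member cells was 25 after thinning (15 higher and 10 lower, 9 of them shared with the 16) and 178 with no filter on low counts (79 higher and 99 lower). It was 11 to 20 under the other alternatives, among them 16 by the mean over cells (10 higher and 6 lower) and 18 by median-of-ratios scaling, which moved the median of all genes by -0.06. S100a9, itself one of the neutrophil markers, was at -0.66 without the cells that held neutrophil marker counts. Of 1117 values of 87 named genes under alternatives, 967 stayed within their counting interval, 149 moved outside it and 1, S100a9, changed sign from a called value. Uncalled values that changed sign under an alternative were those of Ass1, Ccl17, Cxcl2, Inhba, Lpl, Ly6e, Ly6i, Mertk and Smad7, the widest being Ccl17 (-1.16, and 0.61 in Ly6i-led cells). The causes were not tested. Alternatives for gene counts between the other pairs were not run, because those pairs had under 50 member cells on a side.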
